A study of Nannospalax ehrenbergi and Mus musculus with 14 samples.

Results

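The distal microRNA cluster of the imprinted Dlk1-Dio3 domain, from miR-379 to miR-410, was described in injected-side (IS) and uninjected-side (UIS) tissue of *Spalax*, the blind mole rat, and of mice given the carcinogen 3-methylcholanthrene (3MCA). Its members were taken by name from a list of 38 microRNA genes, whatever the arm and the final letter. Rows were found for 36 of the genes, which gave 72 mature names, a 5p and a 3p arm of each gene, of the 1326 mature names in the tables; miR-453 and miR-654 had no row. The cluster was selected on earlier results of the same *Spalax* libraries, that is on the IS against UIS changes in granuloma and in fibrosarcoma, so every *Spalax* IS against UIS value below is a description. The mouse libraries were tested. The *Spalax* UIS libraries were also compared with each other, but they entered the changes used for selection, so those values are a description too.

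The 14 libraries came from 7 animals. All animals received a single injection of 3MCA under the skin of the left flank of the neck, 1 mg in 500 µl for *Spalax* and 200 µg in 200 µl for mice, and muscle tissue was taken from the injected side, where a lesion had grown, and from the opposite side of the same animal. Animals are named by the numbers in the tables, with Sp for *Spalax* and M for mice. *Spalax* animals Sp600 and Sp976, both female, carried granulomas, benign lesions of proliferating spindle cells, and the lesions were taken after 14 and 16 months. *Spalax* animals Sp2240, a female, and Sp2230, a male, carried malignant fibrosarcomas which were taken after 18 and 30 months. The C57BL/6 mice, M512, M1023 and M1019, were male, with ages given as 3 to 4 months, and carried fibrosarcomas at 11, 12 and 14 weeks. *Spalax* were caught in the field and are not inbred. Their exact ages are not known, and the study estimates the treated animals at 2 to over 10 years. Each *Spalax* group held 2 libraries and each mouse group 3, all of treated animals, and no library of an untreated animal was used here. The UIS library listed for mouse M1019 carried another animal number in the table, so it was kept as a mouse UIS library without a pair.

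MicroRNAs are short RNAs that guide repression of matching messenger RNAs. Each is cut from a hairpin, whose left and right sides give the 5p and the 3p arm. The genes of this cluster lie one after another downstream of Meg3 and Rian, are transcribed from the maternal chromosome as long precursors, and are known from placenta, embryo and adult brain, with low levels in most adult tissues including muscle. Some members act in neurons: miR-134 limits the size of dendritic spines. Precursors of the miR-376 group, miR-379 and miR-411 are known substrates of adenosine-to-inosine editing, and edited reads were not separated in the values used here.

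In the mouse genome (GRCm38, GENCODE M21 annotation) the 36 hairpins spanned 34.7 kb at chr12:109709060-109743795, from Mir379 to Mir410. All were annotated on the plus strand except Mir299b. The first 24 lay in no longer annotated gene. The other 12, from Mir382 on, lay inside the long non-coding gene Mirg (chr12:109729764-109749460, same strand), 8 of them overlapping one of its exons and 4 in its introns. The hairpins below carry the members that set the cluster's totals or its extremes: the first and the last of the row, Mir379 and Mir410; Mir411 (chr12:109710175-109710256), which gave the most reads; Mir541 (chr12:109742409-109742498, intron of Mirg), abundant in mice only; Mir409 (chr12:109743158-109743236, intron of Mirg), among the highest estimates in granuloma and in mice; and Mir495 (chr12:109718754-109718816), the lowest estimate in both *Spalax* lesions. Sequences are GENCODE M21 transcripts, written 5′ to 3′ with T for U, and capitals mark the terminal loop predicted by RNAfold, with the 5p arm to its left and the 3p arm to its right.
Mir379: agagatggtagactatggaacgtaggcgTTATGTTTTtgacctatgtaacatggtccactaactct
Mir411: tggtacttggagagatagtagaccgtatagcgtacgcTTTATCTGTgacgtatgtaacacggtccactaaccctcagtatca
Mir495: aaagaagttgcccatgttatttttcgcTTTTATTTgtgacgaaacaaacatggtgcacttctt
Mir541: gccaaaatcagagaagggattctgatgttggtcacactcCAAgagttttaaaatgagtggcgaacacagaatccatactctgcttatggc
Mir409: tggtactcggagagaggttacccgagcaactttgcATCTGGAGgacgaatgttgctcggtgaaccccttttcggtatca
Mir410: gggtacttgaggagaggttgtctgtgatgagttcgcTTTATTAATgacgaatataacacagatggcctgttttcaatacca

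Several hairpins resembled each other, which matters for how reads were split between names. Among the 630 pairs of hairpins the longest shared run had a median of 6 bases, and 6 pairs shared 15 bases or more. In the next sequences capitals mark the longest run common to the hairpins of a set. Mir299b is annotated on the minus strand inside Mir299a, and the run of 21 bases lies before the loop of both. Mir300 and Mir381 shared 16 bases after the loop, on the side of the 3p arm. Mir376a, Mir376b and Mir376c shared 10 bases before the loop, and within this group Mir376b and Mir376c shared 31 in a row.
Mir299a: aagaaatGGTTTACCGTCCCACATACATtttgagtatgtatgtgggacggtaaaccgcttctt
Mir299b: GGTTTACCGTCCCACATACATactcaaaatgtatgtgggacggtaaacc
Mir300: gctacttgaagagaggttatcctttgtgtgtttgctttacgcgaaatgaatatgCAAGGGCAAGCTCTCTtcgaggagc
Mir381: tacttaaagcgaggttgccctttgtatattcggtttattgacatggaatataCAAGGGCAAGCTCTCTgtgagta
Mir376a: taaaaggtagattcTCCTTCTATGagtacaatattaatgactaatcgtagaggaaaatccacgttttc
Mir376b: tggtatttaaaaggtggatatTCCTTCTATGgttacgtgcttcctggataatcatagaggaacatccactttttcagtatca
Mir376c: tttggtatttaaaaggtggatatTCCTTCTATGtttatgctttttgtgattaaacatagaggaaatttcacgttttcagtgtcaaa

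The rows of miR-299a and miR-299b differed by at most 5 reads in any library on the 3p arm and by at most 2 on the 5p arm, so both rows hold the same reads, and leaving miR-299b out changed no count of members by more than 2. The 7-base word held by the most hairpins, found after the sequences were read, was TTCGCTT. Searched on the transcribed strand only, it stood in 10 of the 36 hairpins (27.8%) and in 0.591% of the 2201 microRNA hairpins of the annotation. Other annotated microRNA models overlapped Mir380, Mir376a, Mir539 and Mir409, and whether strand was used in counting is not given in the sources used here.

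The tables hold read numbers scaled by 1 size factor for every library, called normalised counts here, from which whole reads could be recovered. MicroRNA reads per library numbered from 2034574 to 9574014 on the injected side and from 11446933 to 13982842 on the other. The 2 tables were scaled separately, so normalised counts are not compared between the species, whereas shares of reads need no such factor. The tissue label was muscle on both sides. The UIS libraries held 27.7% to 37.3% of their reads on the 17 muscle names (miR-1, miR-133, miR-206, miR-208 and miR-499). At the IS these names held 0.00959% to 0.165% in granuloma, 0.0112% to 0.0132% in *Spalax* fibrosarcoma, and 0.0101%, 2.57% and 3.95% in mice M1019, M1023 and M512. The 6 fibroblast names (miR-199a, miR-199b and miR-214) moved the other way, from 0.427% to 1.96% at the UIS to 19.97% and 20.9% in granuloma, 5.55% and 11.4% in *Spalax* fibrosarcoma and 7.47% to 15.6% in mice. The rows of miR-199a-3p and miR-199b-3p were identical in every library, so the fibroblast shares count these reads 2 times. None of the fibroblast names was at 0 in any group, while 10, 6 and 14 of the 17 muscle names had reads at the IS of granuloma, *Spalax* fibrosarcoma and mice. Of the other lists, the red cell names (miR-451a, miR-144 and miR-486) held 7.21% to 18.1% at the mouse UIS and 0.267% to 3.32% in the other groups. Most of these reads at the mouse UIS lay on miR-486a-5p, with 2448168 (M512), 1079392 (M1023) and 814860 (unpaired). In the same libraries miR-451a had 65748, 19017 and 5832 reads. The neural names (miR-124, miR-9 and miR-128) held 0.117% to 0.737% in the mouse tumors, 0.0407% to 0.0694% at the mouse UIS and 0.0781% to 1.93% in *Spalax*, where the sides overlapped. Names of this list moved in opposite directions. Reads of miR-9-5p numbered 18334 (M512), 7698 (M1019) and 10466 (M1023) in the mouse tumors, against 405, 585 and 864 at the UIS. Those of miR-124-3p numbered 0 in each mouse tumor, against 24, 45 and 45. In granuloma miR-128-3p had 1985 and 1640 reads, against 25446 and 34960 at the UIS. The myeloid and leukocyte names (miR-223 and miR-142) were higher at every IS, with 0.638% and 0.774% in granuloma, 0.786% and 2.35% in *Spalax* fibrosarcoma and 0.316% to 1.58% in mice, against 0.0242% to 0.0464% at the *Spalax* UIS and 0.0439% to 0.0568% at the mouse UIS. The endothelial names (miR-126) held 0.323% to 1.64%, the lymphocyte names (miR-150) 0.00897% to 0.153% and the epithelial names (the miR-200 group, miR-203 and miR-205) 0.000493% to 0.0245%. These are pieces of tissue, so fewer cells of a type and less RNA in each cell cannot be told apart. The part of these shifts in the results below was not tested.

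The whole cluster took a far larger share of microRNA reads in *Spalax* granuloma and in mouse fibrosarcoma than on the opposite side, and not in *Spalax* fibrosarcoma. In granuloma the 72 names held 1.72% of the reads in animal Sp600 (95% Wilson interval 1.71% to 1.73%) and 0.751% in animal Sp976, against 0.0655% and 0.104% at the UIS. The means were 1.24% ± 0.684 and 0.0848% ± 0.0273 (SD, n = 2 each), a ratio of 14.6. In *Spalax* fibrosarcoma the cluster held 0.0216% in animal Sp2230 and 0.0597% in animal Sp2240, against 0.0390% and 0.0547% at the UIS, so the sides overlapped and the ratio of the means was 0.867. In mice the IS libraries gave 0.803% (M512), 1.92% (M1019) and 3.44% (M1023), and the UIS libraries 0.0233% (M512), 0.0442% (M1023) and 0.101% (unpaired). All 3 IS shares stood above all 3 UIS shares, with a ratio of the means of 36.6 (exact permutation test, two-sided, p = 0.1, the smallest that 3 against 3 libraries allow). With the muscle names taken out of the denominator the ratios were 9.31, 0.555 and 26.4. The intervals cover counting error only and are narrow beside the spread between animals.

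**Figure D1:**
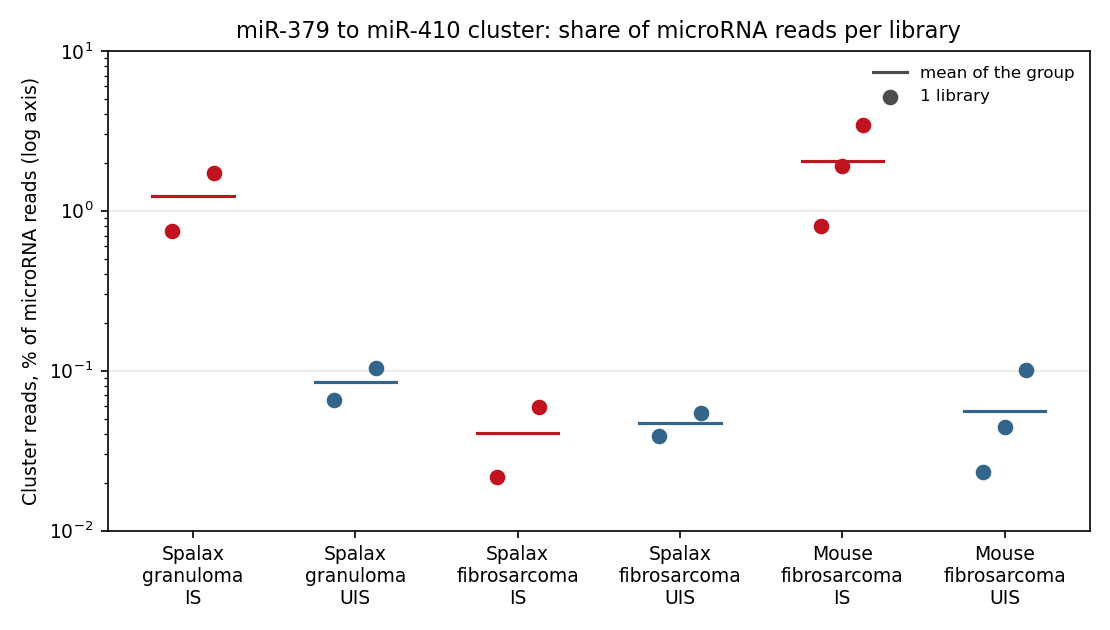
Share of microRNA reads on the 72 members (percent, log axis) in each of the 14 libraries, with the mean of each group as a bar, IS in red and UIS in blue. Granuloma and mouse fibrosarcoma IS libraries lie between 0.751% and 3.44%, and the other libraries between 0.0216% and 0.104%.

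A few names made up most of the cluster. miR-411-5p gave 27.0% to 56.5% of the cluster's reads, depending on the library, and was the most abundant member by its mean over the 14 libraries, with 2490 RPM (reads scaled to the library total). Next came miR-541-5p (1093 RPM), miR-381-3p (922), miR-409-3p (366), miR-410-3p (365) and miR-300-3p (245), followed by miR-134-5p, miR-379-5p, miR-299a-3p, miR-299b-3p, miR-376b-3p and miR-369-3p at 43.2 to 89.7. In each library the 12 names that were most abundant in it held 88.9% to 95.8% of the cluster's reads. At the other end 9 members had no read in any *Spalax* library, and the remaining 63 had at least 1. In mice 71 of 72 had a read, the exception being miR-1197-5p. Mature microRNAs are of nearly equal length, and no length correction was applied to these read counts.

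**Figure D2:**
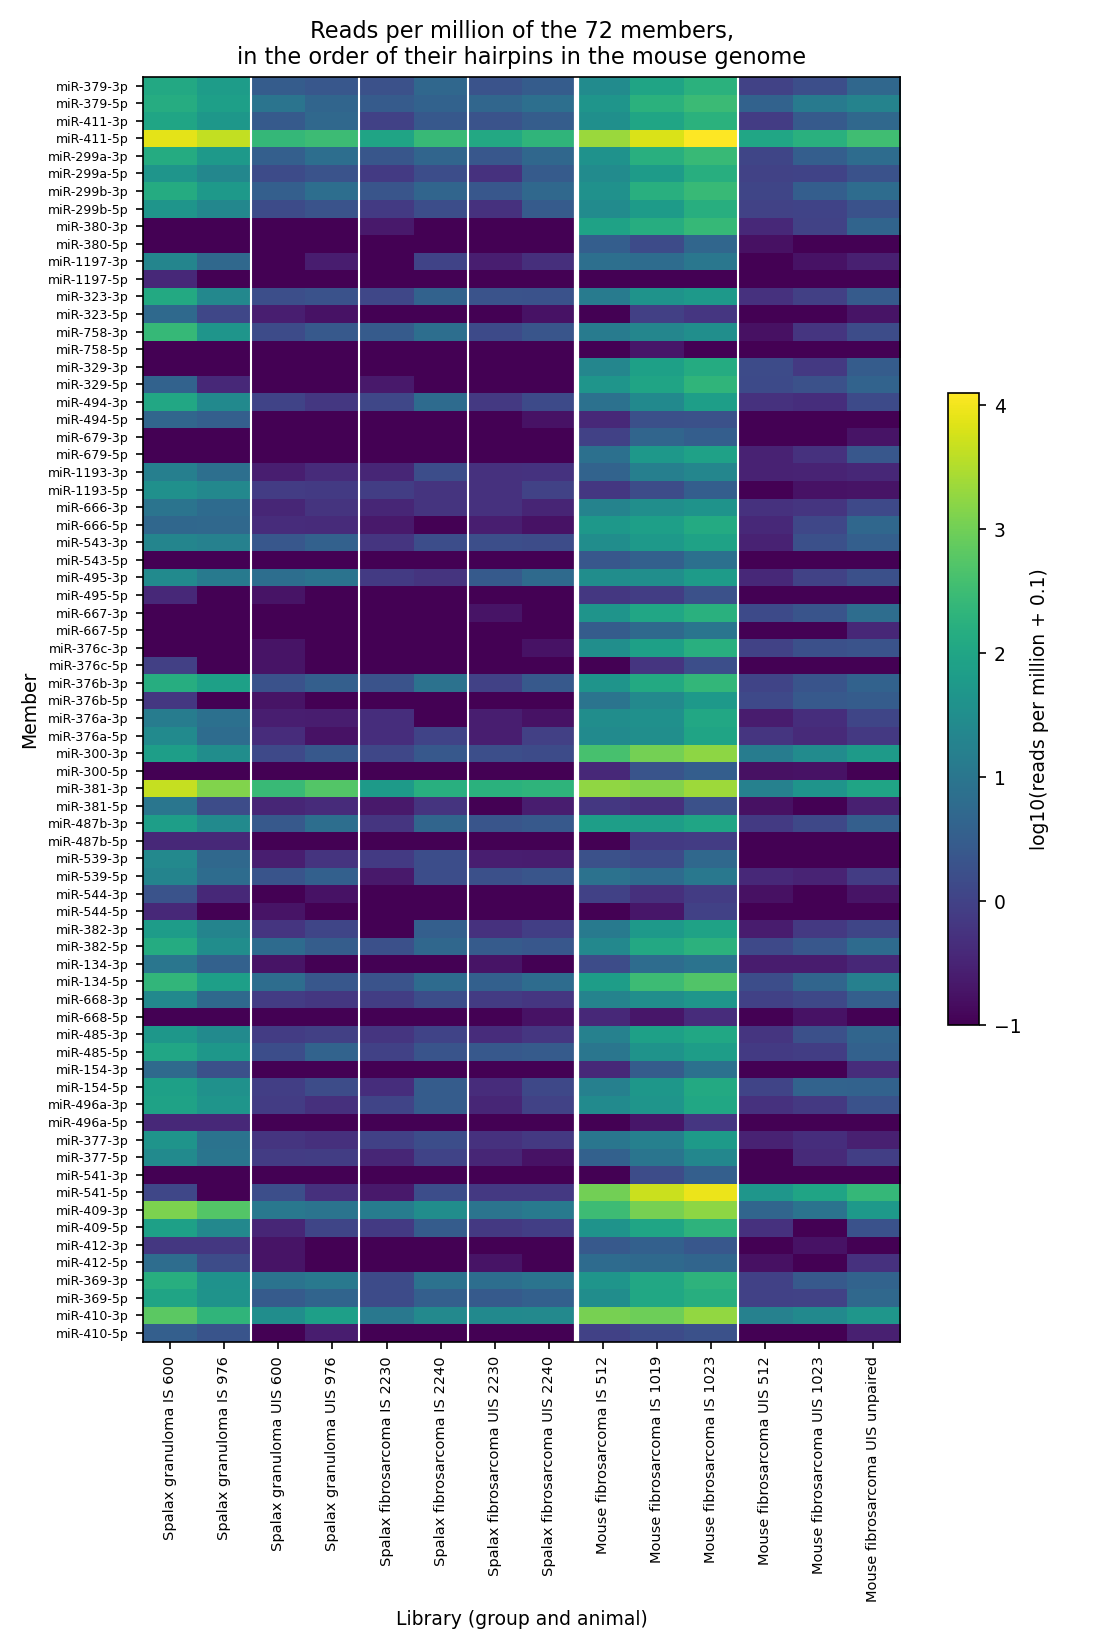
RPM, the reads scaled to the library total, of each of the 72 members (rows, in the order of the hairpins in the mouse genome) in the 14 libraries (columns), as log10(RPM + 0.1), with the darkest colour for 0 reads. The IS columns of granuloma and of mice are brighter than the other columns over most rows, and miR-380, miR-329, miR-679, miR-667 and miR-541 are dark in *Spalax* and bright in mice.

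For the comparison of the sides, 1 was added to the normalised counts before the log2 transformation and the change of each name was estimated with limma over all names with a value of at least 10 in 2 *Spalax* or 3 mouse libraries. That left 43 members in *Spalax* and 49 in mice, 39 of them in both, and 19 in neither. A member is called where its p-value, adjusted over all names tested (447 in *Spalax*, 547 in mice), is under 0.05.

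In granuloma most of the tested members were higher at the IS, with miR-496a-3p, both arms of miR-409 and miR-494-3p changed most among those with reads in every library and miR-495-3p, miR-539-5p, miR-543-3p and miR-381-3p least. Of the 43 tested members 33 were called higher and 0 lower, where 25.5% of all names were called higher and 22.8% lower. The libraries did not overlap, with the IS higher, for 38 members and for 41.4% of all names. With names admitted on their UIS libraries alone, 32 members were tested and 22 called, with a median log2 change of 2.55, so 11 of the 43 needed at least 1 IS library to pass the filter. The median over the 43 was 3.00, or 2.91 with the member that had no UIS read set at a bound of 3 reads, and that of all names 0.13. Since this contrast was used to choose the cluster, nothing further is read from these counts. They also rested on single libraries: without the IS library of animal Sp600 7 members were called, without the UIS library of animal Sp600 13, and without that of animal Sp976 17.

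miR-411-5p reached normalised counts of 34767 and 19022 in the granulomas of animals Sp600 and Sp976, against 3993 and 4941 at the UIS. Both IS libraries stood well above both UIS libraries (log2 change 2.53 ± 0.60, SE). Its partner miR-411-3p changed by 2.38 ± 0.67, although it gave only 351 and 179 reads. miR-409-3p had 5538 and 2426 in the granulomas and 177 and 142.3 on the opposite sides. That was a log2 change of 4.52 ± 0.59, and the 5p arm, at 346 and 105 against 4.25 and 16.5, changed by 4.32 ± 0.94. Both arms of this hairpin were thus among the 5 largest changes of the cluster.

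miR-496a-3p had the largest fitted change of all 447 names, 4.90 ± 0.79, with 389 and 206.5 in the granulomas and 11.3 and 6.35 on the opposite sides. miR-494-3p followed a similar course, at 505 and 117 against 15.6 and 8.89 (4.25 ± 0.97). For miR-1197-3p the granulomas gave 75 and 18 reads and the opposite sides 0 and 2, too few for a fold. miR-494-5p, with 29 reads in both granulomas together and none on the opposite sides, was at least 4.52-fold higher, counting the empty side as 3 reads per library.

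Some members stood apart from this. miR-381-3p, the next most abundant in *Spalax*, had 20201 and 6210 in the granulomas and 4735 and 8569 on the opposite sides, so that the sides overlapped (0.81 ± 0.70). miR-410-3p overlapped too, at 2874 and 970.4 against 519 and 1161 (1.10 ± 0.70). miR-495-3p was the only tested member with a negative estimate, at 125 and 53.2 against 111 and 137 (-0.59 ± 0.63), and miR-539-5p was close to 0 (0.23 ± 0.90). The estimates of miR-543-3p (0.80 ± 0.60) and miR-369-3p (1.15 ± 0.91) were also small. The remaining abundant members lay in between, namely miR-376b-3p at 3.57 ± 0.85, miR-134-5p at 3.17 ± 0.84, miR-300-3p at 2.91 ± 0.65, miR-299a-3p at 2.35 ± 0.70 and miR-379-5p at 2.15 ± 0.59.

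In *Spalax* fibrosarcoma most of the tested members had estimates below 0, and fewer passed the test. Of the 43 tested members 10 were called lower and 0 higher, where 22.1% of all names were called lower and 15.2% higher. The share of members called lower, 23.3%, was thus near that of all names. The IS libraries lay below the UIS libraries for 24 members and for 36.9% of all names. The median log2 change was -1.33, and that of all names -0.23. This direction depended on the scaling: with reads scaled to library totals the median of the members was -0.0075 and that of all names 1.395, against 4.68 and 1.90 in granuloma, and 1 member was called in fibrosarcoma. The number called was 1 without either library of animal Sp2230, 1 without the UIS library of animal Sp2240, and 5 without either UIS library of the granuloma-bearing animals, which share the fit.

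The lowest of the tested members was again miR-495-3p, with normalised counts of 2.72 in the tumor of animal Sp2230 and 2.17 in that of animal Sp2240, against 37.3 and 81.8 at the UIS (log2 change -4.04 ± 0.63). The tumor values stand for 5 reads and 1 read. miR-539-5p had 0.544 and 6.51, from 1 and 3 reads, against 24.1 and 29.1 (-3.01 ± 0.90). miR-381-3p fell from 2556 and 2876 to 262 and 723 (-2.64 ± 0.70), and miR-369-3p from 98.7 and 128.1 to 5.99 and 36.9 (-2.80 ± 0.91). In these 4 members the IS libraries lay below the UIS libraries.

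Among the 5 lowest estimates was also miR-485-5p, at 3.81 and 8.68, from 7 and 4 reads, against 34.9 and 39.8 (-2.49 ± 0.68). miR-411-5p had 418 and 1183 against 1728 and 3114 (-1.72 ± 0.60), and miR-379-5p 12.0 and 17.4 against 67.4 and 100.1 (-2.43 ± 0.59). The estimate was -2.30 ± 0.70 for miR-410-3p, -2.08 ± 0.84 for miR-134-5p, -1.72 ± 0.70 for miR-299a-3p and -1.40 ± 0.65 for miR-300-3p. At the other end the sides overlapped for miR-409-3p, at 61.0 and 141.03 against 127.6 and 166 (-0.64 ± 0.59), for miR-494-3p (-0.09 ± 0.97), miR-758-3p (-0.25 ± 0.88), miR-376b-3p (-0.25 ± 0.85), miR-377-5p (0.11 ± 0.81) and miR-496a-3p (0.11 ± 0.79). miR-539-3p, with 5 and 3 reads in the tumors and 2 in each UIS library, had the highest estimate (0.69 ± 0.90).

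The difference between the 2 *Spalax* changes was above 0 for all 43 tested members, with a median of 4.25 on the log2 scale against -0.10 for all names. Of the members 10 were called, all with the larger change in granuloma, where 3.80% of all names were called. With the animal as a replicate block, which compares the sides within each animal, 3 members were called. The count was 0 when any single UIS library, the granuloma of animal Sp600 or the tumor of animal Sp2230 was left out, 20 without the granuloma of animal Sp976 and 18 without the tumor of animal Sp2240. The largest estimates were those of miR-1197-3p (5.67 ± 1.60), miR-485-5p (5.49 ± 0.96), miR-134-5p (5.25 ± 1.19), miR-409-3p (5.16 ± 0.84) and miR-1193-5p (4.95 ± 0.84). Of these miR-1197-3p, with 0 to 5 reads in each *Spalax* library outside the granulomas, and miR-134-5p were not called. The smallest, none of them called, were those of miR-377-5p (2.45 ± 1.15), miR-539-3p (2.49 ± 1.27), miR-666-5p (2.99 ± 0.92), miR-543-3p (3.01 ± 0.84) and miR-668-3p (3.04 ± 1.14). miR-495-3p (3.45 ± 0.89) and miR-381-3p (3.45 ± 0.99), which stood low in both lesions, were thus close to the other members in this difference. The fibroblast names, with the reads of miR-199a-3p and miR-199b-3p counted 2 times, held a larger share in granuloma than in *Spalax* fibrosarcoma (19.97% and 20.9% against 5.55% and 11.4%). The myeloid and leukocyte names held a smaller one (0.638% and 0.774% against 0.786% and 2.35%). The part of both lists in the difference was not tested. Condition, time after injection and, for 1 animal, sex also differed between the lesions and cannot be told apart.

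Away from the lesions no member passed the test between the animals, although most estimates were above 0. Between the UIS libraries of the granuloma-bearing and the fibrosarcoma-bearing *Spalax*, 0 of the 43 tested members were called by limma, edgeR or DESeq2, where 0% of all names were called. The median log2 difference, granuloma-bearing less fibrosarcoma-bearing, was 0.47 against 0.07 for all names, and 36 of the 43 estimates were above 0. These libraries also entered the changes used to choose the cluster, so the values are a description. The libraries did not overlap, higher in granuloma-bearing animals, for 15 members and for 21.5% of all names, and lower for 1 member and for 16.6%. The cluster's shares of 0.0655% and 0.104% also lay above those of 0.0390% and 0.0547%. At an unadjusted p under 0.05, 1 member and 5 of all names passed. The member was miR-377-5p, with normalised counts of 11.3 and 11.4 against 3.61 and 1.08 (log2 difference 2.00 ± 0.81). The other largest estimates, higher in granuloma-bearing animals, were those of miR-666-5p (1.26 ± 0.65), miR-381-3p (1.23 ± 0.70), miR-495-3p (1.14 ± 0.63) and miR-410-3p (1.11 ± 0.70), and the lowest was that of miR-1197-3p (-1.31 ± 1.13), which had 0 to 5 reads in each of these libraries. miR-376a-5p (-0.77 ± 1.03), miR-1193-3p (-0.58 ± 0.80) and miR-409-5p (-0.13 ± 0.94) were the next lowest with reads in every library, and miR-411-5p stood at 0.94 ± 0.60.

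In mouse fibrosarcoma nearly the whole tested cluster rose. Of 49 tested members 45 were called higher at the IS and 0 lower, where 32.2% of all names were called higher and 25.6% lower. Every tumor exceeded every UIS library for 42 members and for 36.6% of all names. All 49 estimates were above 0, with a median log2 change of 3.12 against 0.21 for all names. Under scaling to library totals the medians were 5.38 and 2.57 and all 49 were called. With names admitted on their UIS libraries alone, so that a high IS value could not bring a member in, 38 were tested and 34 called. The share of all names called is not set beside these counts. They show only how the number of members called moved with the setting. The number called was 29 without the tumor of mouse M1023, 29 without the UIS of mouse M512 and 26 without the UIS of mouse M1023, and it was 40 with the animal as a replicate block.

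miR-411-5p had normalised counts of 8318 (M512), 22487 (M1019) and 50150 (M1023) in the tumors, against 2756, 3195 and 5438 at the UIS. Every tumor exceeded every UIS library (limma, log2 change 2.54 ± 0.66, adjusted p = 0.0161). miR-541-5p, the next most abundant in the tumors of mice M1019 and M1023, had 3899, 17325 and 36309 against 1266, 1782 and 3842 (limma, 2.71 ± 0.84, adjusted p = 0.0299). miR-381-3p rose as well, from 473, 804 and 1458 to 6826, 4834 and 9090 (limma, 3.02 ± 0.49, adjusted p = 0.00323), as did miR-410-3p, from 463, 480.4 and 749 to 4328, 3296 and 7697 (limma, 3.12 ± 0.42, adjusted p = 0.00212). In both, the tumor of mouse M512, the lowest for the cluster as a whole, was not the lowest of the tumors.

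The 5 largest changes were those of miR-409-5p, miR-380-3p, both arms of miR-376a and miR-382-3p. miR-409-5p had 161, 352 and 809 in the tumors of mice M512, M1019 and M1023, against 11.5, 0 and 28.5 at the UIS of M512, of M1023 and of the unpaired library (limma, 5.64 ± 1.27, adjusted p = 0.00986). miR-409-3p had 1200, 3963 and 7032 against 121, 161 and 909 (limma, 3.62 ± 0.94, adjusted p = 0.0158). miR-380-3p rose by 4.71 ± 0.83, from 7.69, 16.5 and 66.5 to 331, 515 and 1078. miR-376a-3p (4.48 ± 0.73), miR-376a-5p (4.07 ± 0.63) and miR-382-3p (3.91 ± 0.87) followed, and their tumor libraries lay above the UIS libraries.

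The smallest changes were those of miR-376b-5p (1.10 ± 0.71), miR-379-5p (1.39 ± 0.77), miR-154-5p (1.81 ± 0.81), miR-668-3p (1.96 ± 0.56) and miR-539-5p (1.99 ± 0.51). The first 3 and miR-485-5p (2.22 ± 0.87) were the 4 members not called. miR-379-5p had 174, 635 and 1218 in the tumors against 108, 228 and 301 at the UIS, and the sides overlapped. miR-376b-5p overlapped as well, at 34.4, 88.5 and 235 against 32.7, 48.0 and 44.8. miR-300-3p, at 2.62 ± 0.61, was in the lower part of the order and called. miR-134-5p (3.12 ± 0.95), miR-299a-3p (3.03 ± 0.82), miR-376b-3p (3.35 ± 0.70) and miR-369-3p (3.18 ± 0.67) lay nearer the middle, and all were called. miR-495-3p, the low extreme in both *Spalax* lesions, rose in mice by 3.27 ± 0.59 (limma, adjusted p = 0.00471), at 120.0, 113 and 262 against 7.69, 16.5 and 25.8. The muscle names held 2.57% and 3.95% of the reads in the tumors of mice M1023 and M512 and 0.0101% in that of mouse M1019, where the cluster's share was 3.44%, 0.803% and 1.92%.

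**Figure D3:**
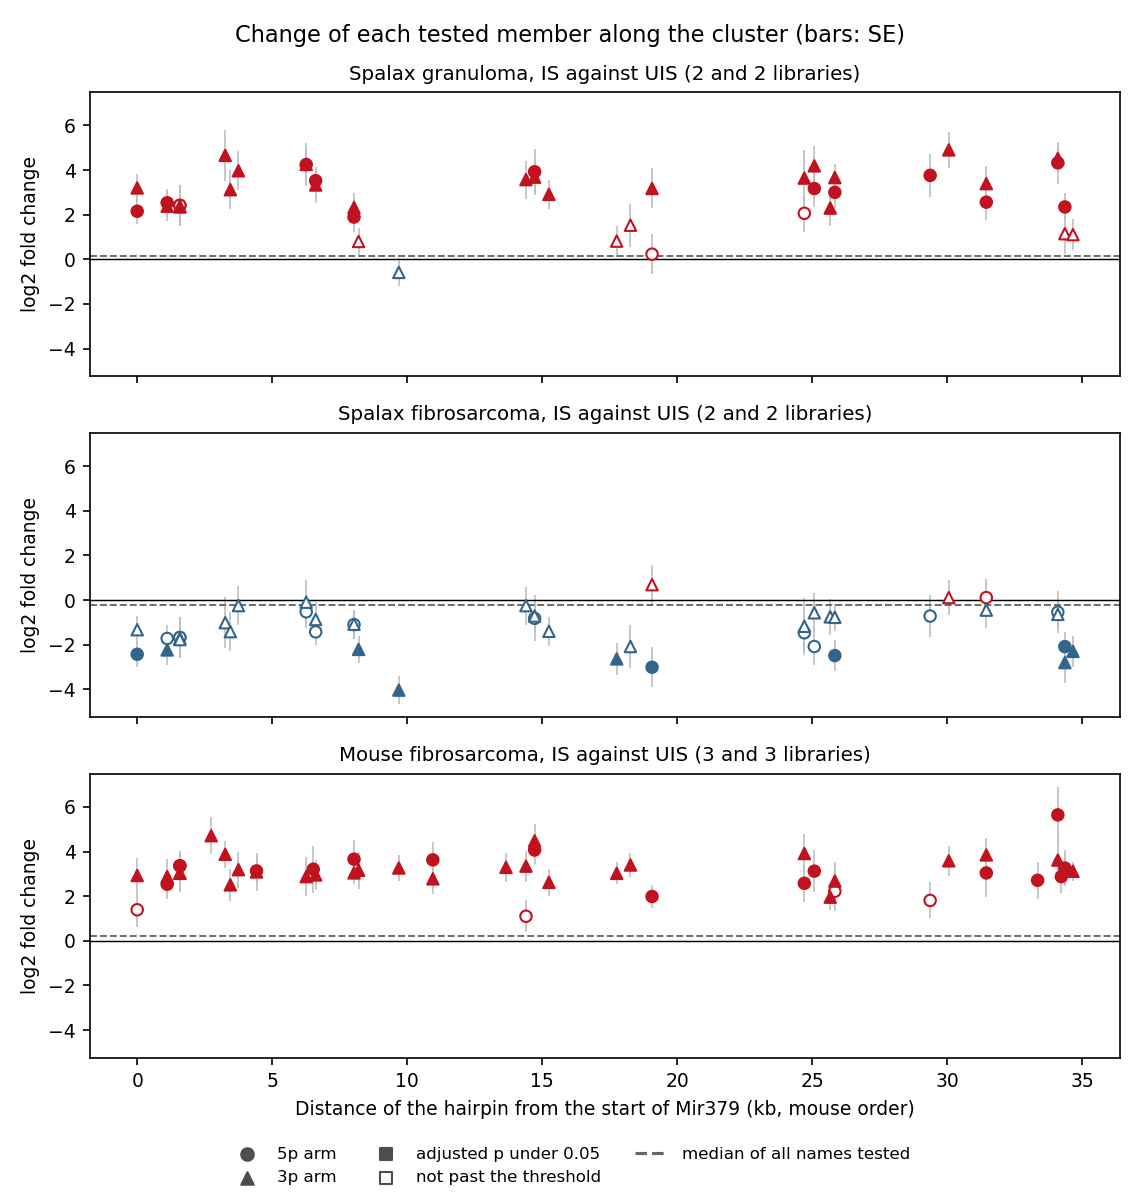
Log2 fold change, IS against UIS, of each tested member against the distance of its hairpin from the start of Mir379 (kb), with standard errors, circles for 5p and triangles for 3p arms, filled where the adjusted p is under 0.05, and the median of all names as a dashed line. Points lie above the dashed line along the whole 34.7 kb in granuloma, except miR-495-3p, and in mice, and mostly below it in *Spalax* fibrosarcoma.

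Changes were spread along the whole row of hairpins. The 48 names before Mirg gave a ratio of mean shares of 13.6 in granuloma, 0.832 in *Spalax* fibrosarcoma and 34.5 in mice, and the 24 names within Mirg 22.5, 1.10 and 39.9. For the 16 names at Mirg exons the ratios were 13.01, 0.796 and 41.2, and for the 8 names in its introns, which include miR-409-3p and miR-541-5p, 81.0, 2.24 and 39.4. Without miR-411-5p the other 71 names gave 11.1, 0.757 and 38.4, and without miR-411-5p, miR-381-3p and miR-541-5p the other 69 names gave 22.3, 1.08 and 39.7. The same ratios for the 31 names of the proximal cluster, the group of microRNA genes on the Meg3 side of the same imprinted domain, were 18.0, 0.978 and 27.5. Of its tested names 11 of 18 were called higher in granuloma, 4 of 18 lower in *Spalax* fibrosarcoma and 20 of 22 higher in mice, with medians of 2.45, -1.34 and 3.00. Of all names 25.5%, 22.1% and 32.2% were called in these directions. The 4 of 18 in *Spalax* fibrosarcoma, 22.2%, were thus near the share of all names. No test of a difference between the 2 clusters was made.

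The make-up of the cluster differed between sides and species. In *Spalax* miR-381-3p took 44.1% and 52.3% of the cluster's reads at the UIS of animals Sp600 and Sp976 and 46.2% and 37.4% at the UIS of animals Sp2230 and Sp2240. In the lesions of the same animals it took 26.4%, 18.5%, 27.8% and 27.4%, below every UIS library. miR-409-3p moved the other way, with 0.869% to 2.31% at the 4 UIS libraries and 7.23%, 7.21%, 6.47% and 5.35% in the lesions of animals Sp600, Sp976, Sp2230 and Sp2240. miR-411-5p took 30.2% to 40.5% at the UIS and 44.3% to 56.5% in the lesions. In these 3 members the lesions of both kinds lay on the same side of every UIS library, although the total of the cluster differed between them. In mice the shares of miR-381-3p at the IS and UIS overlapped (22.1%, 7.26% and 6.47% against 7.55%, 9.84% and 9.30%), as did those of miR-409-3p. Those of miR-411-5p overlapped too and were mostly lower in the tumors, at 27.0%, 33.8% and 35.7% against 44.0%, 39.1% and 34.7%. The tumor of mouse M512 had another make-up, with 22.1% on miR-381-3p, 14.0% on miR-410-3p and 12.7% on miR-541-5p, where the other tumors had 4.95% and 5.48% on miR-410-3p and 26.0% and 25.9% on miR-541-5p.

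**Figure D4:**
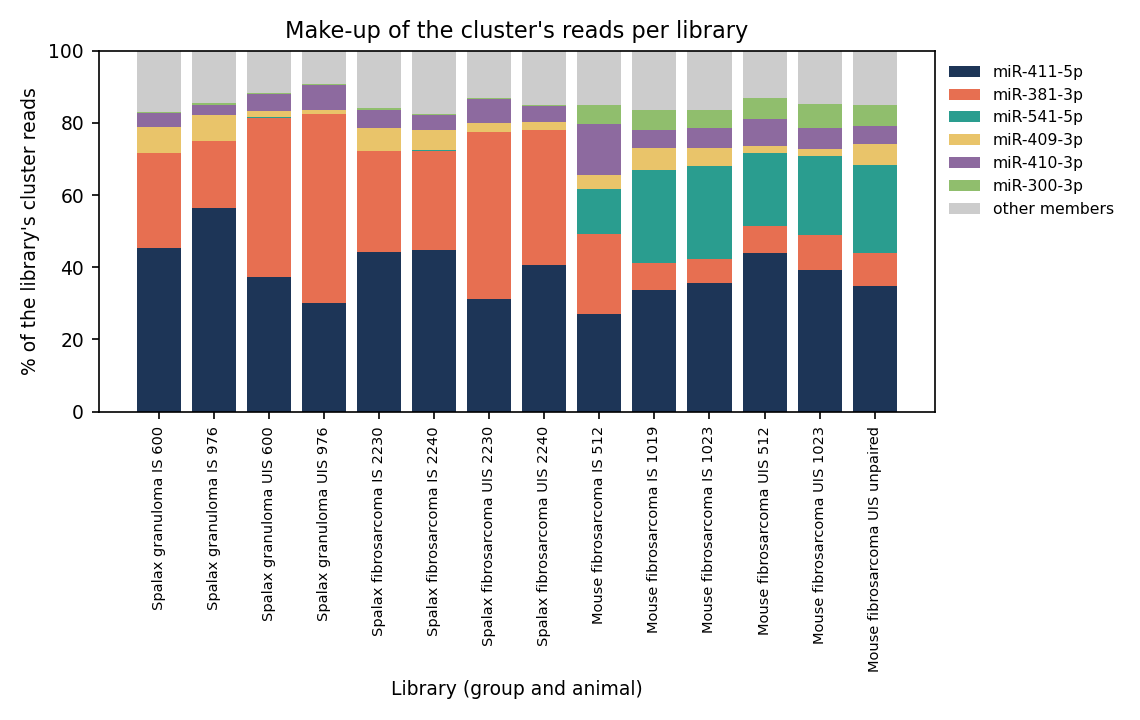
Percent of each library's cluster reads on the 6 most abundant members and on all others. miR-381-3p is larger at the UIS than in the lesions of *Spalax*, and miR-541-5p and miR-300-3p take visible parts of the mouse bars only.

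A set of members was seen in mice and hardly at all in *Spalax*. With at least 10 reads summed over the mouse libraries and at most 3 over the 8 *Spalax* libraries there were 14 such names. The cut-offs are not scaled to depth: cluster reads per library numbered 3260 to 194322 in mice and 1214 to 61411 in *Spalax*. Nearest the cut-offs were miR-495-5p, with 19 reads in mice and 2 in *Spalax*, and miR-487b-5p, with 10 and 2. No count over all names by the same rule was made, so whether this is particular to the cluster cannot be told. miR-380-3p had 3276 reads in mice and 1 in *Spalax*, miR-667-3p 2281 and 1, miR-376c-3p 1867 and 2, miR-329-3p 1670 and 0, and miR-679-5p 1034 and 0. miR-541-5p was not in that set but came close, with 659 to 50243 reads in each mouse library and 0 to 18 in each *Spalax* library. For some of these names the other arm of the hairpin had reads in *Spalax*, whereas both arms of miR-380, miR-667 and miR-679 had at most 1. miR-376b-3p had 10 to 532 reads in every *Spalax* library while miR-376b-5p had 3 reads in all of them together, against 685 in mice. The tables of both species list the same mouse names, and whether the *Spalax* sequences of these microRNAs differ from those of the mouse was not tested.

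Which arm of a hairpin gave the reads is a ratio within a library and needs no scaling between libraries. Of the genes with at least 10 reads in every library, 12 in *Spalax* and 20 in mice, the 5p arm gave over 50% in every library for 3 and 6, the 3p arm for 7 and 9, and the rest varied. Of the 11 genes that met this in both species, 8 had the same arm over 50% in every library of both. In miR-369, miR-376b and miR-379 single libraries crossed 50%. With the libraries of each group pooled, the 5p share was 54.6% to 83.0% for miR-379, 26.1% to 46.9% for miR-369 and 0% to 49.7% for miR-376b. The leading arm of miR-379 and of miR-369 was thus the same in every pooled group. For miR-376b both arms were nearly equal at the mouse UIS, with 49.7% on the 5p arm, against 18.4% in the mouse tumors. miR-411 was 5p in 98.4% to 99.3% of its reads over all 14 libraries, and miR-381 never reached 0.41% on the 5p arm. miR-379 was less 5p-biased at the IS in both species. Its 5p share was 61.6% to 66.3% in the mouse tumors and 79.6% to 88.8% at the mouse UIS, and 44.4% to 61.1% in the *Spalax* lesions and 66.3% to 75.7% at the *Spalax* UIS. In mice the 5p shares of miR-376b, at 17.03% to 19.5% in the tumors and 42.3% to 56.5% at the UIS, and of miR-382, at 66.7% to 68.6% and 79.5% to 89.5%, were also apart, while that of miR-667 was higher in the tumors. These are counts near the background: the 5p share was lower in every IS than in every UIS library for 3 of 20 members' genes in mice and 1 of 12 in *Spalax*, where 19.7% and 16.4% of all genes with as many reads did the same, and higher for 1 of 20 and 2 of 12, where 16.3% and 10.5% did. These shares were not tested, and an exact permutation test of 3 against 3 libraries cannot give a p under 0.1.

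**Figure D5:**
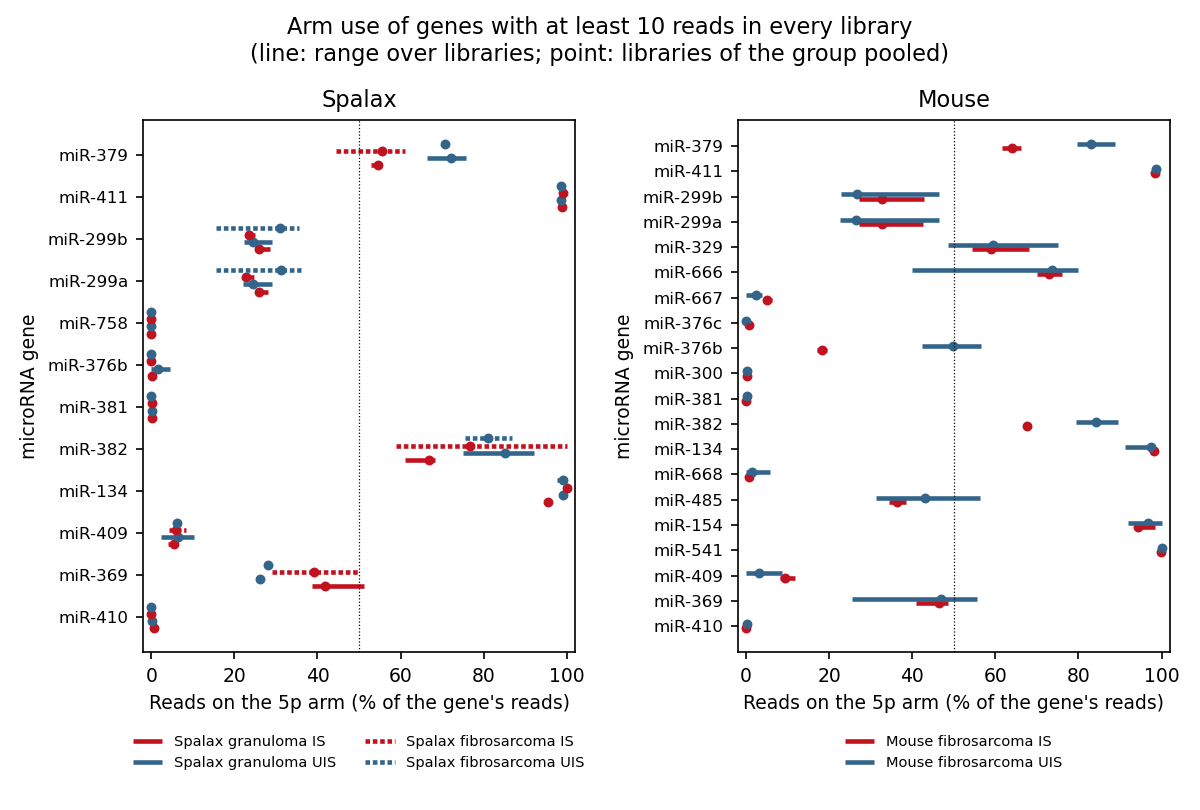
Percent of a gene's reads on its 5p arm for the 12 *Spalax* and the 20 mouse genes of the cluster with at least 10 reads in every library, with a line over the range of a group's libraries, a point for the libraries pooled, IS in red, UIS in blue, and dashed lines for *Spalax* fibrosarcoma. Most genes use the same arm in every group, and miR-379 lies further to the left at the IS than at the UIS in both species.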

How the data were processed

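Small-RNA libraries were made from injected-side and uninjected-side tissue of 4 *Spalax* and 3 mice and sequenced on 1 lane. Per the study's methods, adaptors were trimmed and reads were mapped with mirDeep, and DESeq2 was used for differential expression; the submitters' processing notes also name TopHat 1.4.1, HTSeq, DESeq and the build GRCm38. The reference used for *Spalax* microRNAs and the strand setting are not given in the sources used here. The deposited signal values were made by the authors by dividing the reads of each library by its size factor, for 1326 mature names in each of 2 tables. All values above 0 (100%) were whole multiples of the value of 1 read, within 0.01 reads, so reads were recovered. The 5 mouse columns repeated in the *Spalax* table were not used. The UIS sample labelled for mouse M1019 has a column with another animal number, and it was used without a pair. Replicate libraries differed by more than sampling noise (chi-square per degree of freedom at least 327). Each library is 1 side of 1 animal.

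Members and lists were chosen with earlier results of these data known. The main test was limma 3.58.1 (R 4.3.3, with a mean trend) on log2(value + 1), with the 8 *Spalax* libraries in 1 fit and the 6 mouse libraries in another, over names with a value of at least 10 in 2 *Spalax* or 3 mouse libraries. P-values were adjusted by Benjamini-Hochberg over all names tested, with a threshold of 0.05. Fold changes are on the log2(value + 1) scale and understate the changes of low names. Alternatives were scaling to library totals, size factors without muscle names, a pseudocount of 0.1, no filter, edgeR 4.0.16 (TMM factors, quasi-likelihood) and DESeq2 1.42.0 on the recovered reads, a replicate block and leaving out each library. The alternatives without miR-299b and with a filter on the UIS libraries alone were chosen after seeing the data. The animal pairs an IS with a UIS library, and the correlations of their deviations from the group means were 0.0933 and 0.00405 in *Spalax* and -0.107 and 0.122 in mice. Named in full were the 12 most abundant members and, in each comparison, the 5 largest and the 5 smallest changes. Wilson intervals (95%) and floors of 3 reads cover counting error only. Hairpins came from GENCODE M21 (GRCm38), with loops predicted by ViennaRNA 2.7.2. Scripts ran in Python 3.11.15 and were tested on simulated data.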

Additional observations from a re-analysis of the deposited data

Results flagged for a closer look

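The change from UIS to IS differed between granuloma and fibrosarcoma of *Spalax* for 10 members by the adjusted test of the difference itself (limma, over all names tested). On the log2 scale the granuloma change less the fibrosarcoma change was 5.49 for miR-485-5p, 5.16 for miR-409-3p, 4.95 for miR-1193-5p, 4.61 for miR-411-3p, 4.58 for miR-379-5p, 4.53 for miR-379-3p, 4.44 for miR-485-3p, 4.43 for miR-369-5p, 4.31 for miR-300-3p and 4.25 for miR-411-5p. The same comparison was used to choose the cluster, so these values are a description. Groups held 2 or 3 libraries, and the search for single outlying libraries, which needs at least 4, was not made.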

How the results depend on the processing

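Under scaling to library totals the median log2 change of the tested members was 4.68 in granuloma, -0.0075 in *Spalax* fibrosarcoma and 5.38 in mice, and 1 member was called in *Spalax* fibrosarcoma. Without a filter 5 were called there. The difference between the *Spalax* changes called 0 members with a pseudocount of 0.1, 0 without a filter, 32 with DESeq2 and 3 with the replicate block. With the block 32 were called in granuloma, 9 in *Spalax* fibrosarcoma and 40 in mice, so it changed no other count by over 1.5 times. The share difference in *Spalax* fibrosarcoma was -0.0326 percentage points with muscle names out of the denominator and -0.00621 with them. With at least 50 reads in every library, genes of mixed arm use numbered 0 of 4 in *Spalax* and 0 of 7 in mice. The causes were not tested.

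Leaving out 1 library at a time, the members called ranged from 7 to 33 in granuloma, 1 to 14 in *Spalax* fibrosarcoma, 0 to 20 for the difference, 0 to 0 between the UIS libraries and 26 to 49 in mice. The medians ranged from 2.10 to 3.50, -2.03 to -0.736, 3.58 to 4.87, 0.133 to 0.753 and 2.65 to 3.66. The share differences ranged from 0.667 to 1.63 percentage points in granuloma, -0.0252 to 0.0128 in *Spalax* fibrosarcoma and 1.30 to 2.62 in mice. A lone library left in a group is assumed to vary like the others. With 2 or 3 animals a group, the spread between animals and not depth limits most values, except for members with a few reads.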
